A study of Mus musculus with 8 samples.

Results

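Bulk RNA sequencing data were examined for 10 mouse genes, *Gria2*, *Cntn2*, *Ngfr*, *Gas1*, *Wscd1*, *Fap*, *Dmp1*, *Ush1c*, *Ndrg2* and *Atp1b1*, out of 56923 genes with a row in the count tables. They were selected on measured values of these libraries, as genes much higher in thymic epithelial organoids than in monolayer culture, in freshly sorted cells or in both. Thymic epithelial cells (TECs) came from E16.5 thymi of wild-type C57BL/6J embryos and were sorted as EpCAM+ cells, with no treatment in any group. The sort also stained Ter119, PDGFRα, PDGFRβ, CD31 and CD45, which mark erythroid, mesenchymal, endothelial and blood cells. *In vivo* TECs went straight from the sort into lysis buffer. For 2D culture, sorted TECs grew on plates coated with laminin until the monolayer was confluent, at 3 days. Organoids grew from sorted TECs in growth factor-reduced Matrigel and were collected at day 3 (D3) or day 7 (D7). All cultures were kept in TEC medium with FGF7. Thiazovivin, an inhibitor of the kinase ROCK, was in the medium in which sorted cells were collected and in the organoid medium for the first 2 days, and whether 2D cultures had it too is not given in the sources used here. Each of the 4 groups had 2 libraries, labelled as biological replicates. The QuantSeq method reads the 3′ ends of transcripts, so splice forms of a gene were not told apart.

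Counts summed to between 5084715 and 7612532 per library, and the 18S ribosomal RNA gene took 16.6% to 24.3% of them. Values are given as CPM, counts scaled to a common library size with edgeR's TMM factors (0.880 to 1.09). The test covered the 14504 genes whose unscaled CPM reached 1 in 3 or more libraries. The 10 genes are among them, but *Gria2*, *Cntn2*, *Dmp1* and *Ush1c* owe this mainly to the organoid libraries in which they are high. Where both libraries of a group had no more than 3 counts, the gene was called at the floor there. With 2 libraries against 2, an exact two-sided permutation test cannot go below p = 0.333. The adjusted p-values below therefore come from edgeR's quasi-likelihood test, which estimates the spread across genes and groups. Organoids against 2D-cultured or *in vivo* TECs are described with no test, since these differences chose the genes. The choice did not name an organoid day, and D7 against D3 was tested.

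TECs build the thymic stroma that guides T-cell development, and Foxn1 is the transcription factor they depend on. A part of the medullary TECs also transcribes genes of many other tissues at low levels, under regulators such as Aire and Fezf2, which exposes thymocytes to self-antigens. Most of the 10 genes are known from other tissues, namely neurons and glia (*Gria2*, *Cntn2*, *Ngfr*, *Ndrg2*), connective tissue and bone (*Gas1*, *Fap*, *Dmp1*) and epithelia with microvilli or high ion transport (*Ush1c*, *Atp1b1*). Of the 10 encoded proteins, 6 sit at the cell surface. The name ectopic holds only in part for these libraries. Only 4 of the 10 genes were at the floor *in vivo* (*Gria2*, *Cntn2*, *Dmp1*, *Ush1c*), and 1 was at the floor in 2D (*Ush1c*), while 6 were above it in *in vivo* TECs.

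The promoters of the 4 genes at the floor *in vivo* are shown because these genes were undetected or nearly so there and clearly detected in organoids. Each run covers 270 bases before and 30 bases from the start of the canonical GENCODE transcript, read 5′ to 3′ on the gene's strand from GRCm39, the build of the counts. Capitals mark matches, on either strand, to any of 7 motifs that were searched.
Gria2, chr3:80710509-80710808, minus strand: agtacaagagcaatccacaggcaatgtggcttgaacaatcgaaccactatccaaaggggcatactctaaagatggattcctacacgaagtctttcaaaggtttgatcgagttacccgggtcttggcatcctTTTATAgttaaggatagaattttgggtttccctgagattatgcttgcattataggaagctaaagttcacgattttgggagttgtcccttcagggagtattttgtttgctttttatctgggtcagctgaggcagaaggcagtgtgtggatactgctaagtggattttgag
Cntn2, chr1:132470828-132471127, minus strand: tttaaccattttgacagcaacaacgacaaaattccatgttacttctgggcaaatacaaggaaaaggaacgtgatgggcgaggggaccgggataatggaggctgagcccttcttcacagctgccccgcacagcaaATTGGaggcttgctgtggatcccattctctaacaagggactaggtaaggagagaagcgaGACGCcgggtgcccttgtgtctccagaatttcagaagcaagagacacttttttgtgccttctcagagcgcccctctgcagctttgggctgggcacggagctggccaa
Dmp1, chr5:104350206-104350505, plus strand: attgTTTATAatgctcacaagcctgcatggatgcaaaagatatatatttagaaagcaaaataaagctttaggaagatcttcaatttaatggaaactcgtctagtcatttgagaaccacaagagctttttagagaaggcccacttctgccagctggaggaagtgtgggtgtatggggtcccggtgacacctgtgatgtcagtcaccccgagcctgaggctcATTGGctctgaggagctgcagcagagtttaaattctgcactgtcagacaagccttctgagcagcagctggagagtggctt
Ush1c, chr7:45887958-45888257, minus strand: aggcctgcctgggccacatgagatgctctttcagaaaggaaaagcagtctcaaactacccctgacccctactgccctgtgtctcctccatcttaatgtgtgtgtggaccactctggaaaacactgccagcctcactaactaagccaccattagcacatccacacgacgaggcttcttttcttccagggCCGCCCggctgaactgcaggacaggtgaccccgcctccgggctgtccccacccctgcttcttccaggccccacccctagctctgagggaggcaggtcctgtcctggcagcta
The letters of the TATA box (TATAAA) occurred in 13.5% of 21769 promoters of protein-coding genes and in 3 of the 10 genes. These were *Gria2*, *Fap* and *Dmp1*, with the match on the other strand in *Gria2* and *Dmp1*. Motifs were counted at any position in the window, so a match to such letters is not evidence of a working box. The CCAAT box (CCAAT) occurred in 40.4% of promoters and in 5 of the 10, and the GC box (GGGCGG) in 41.1% and in 4 of the 10. The core letters bound by FOXN1 (GACGC) were in 28.4% of promoters and in 2 of the 10, *Cntn2* and *Ndrg2*. None of the 10 windows held the AP-1 letters (TGANTCA, 7.29% of promoters), the TEAD letters (GGAATG, 14.4%) or the left part of the RE1 element bound by REST (TTCAGCACC, 0.322%). No 2 of these motifs overlap in the sequences shown. The observed over expected ratio of CpG in the 10 windows ran from 0 in *Wscd1* to 0.959 in *Gas1*, with a median of 0.495 over all promoters. The windows thus had no motif in common.

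All organoid libraries of all 10 genes lay above all 2D and *in vivo* libraries, on both days. This count follows from the choice and is no result. Over all genes tested, 24.4% were higher and 21.1% lower in D7 organoids than in 2D (adjusted p of at most 0.05 from edgeR), and 19.3% were higher and 19.1% lower in D3 organoids than in 2D. Against *in vivo* TECs, 18% were higher and 16.8% lower in D7 organoids, and 14.1% were higher and 14% lower in D3 organoids. Below the organoids, the 10 genes divided. The mean was higher in 2D than *in vivo* for 6 of them and higher *in vivo* than in 2D for 4 (*Gas1*, *Wscd1*, *Fap* and *Ush1c*), of which *Ush1c* was at the floor in both groups.

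**Figure D1:**
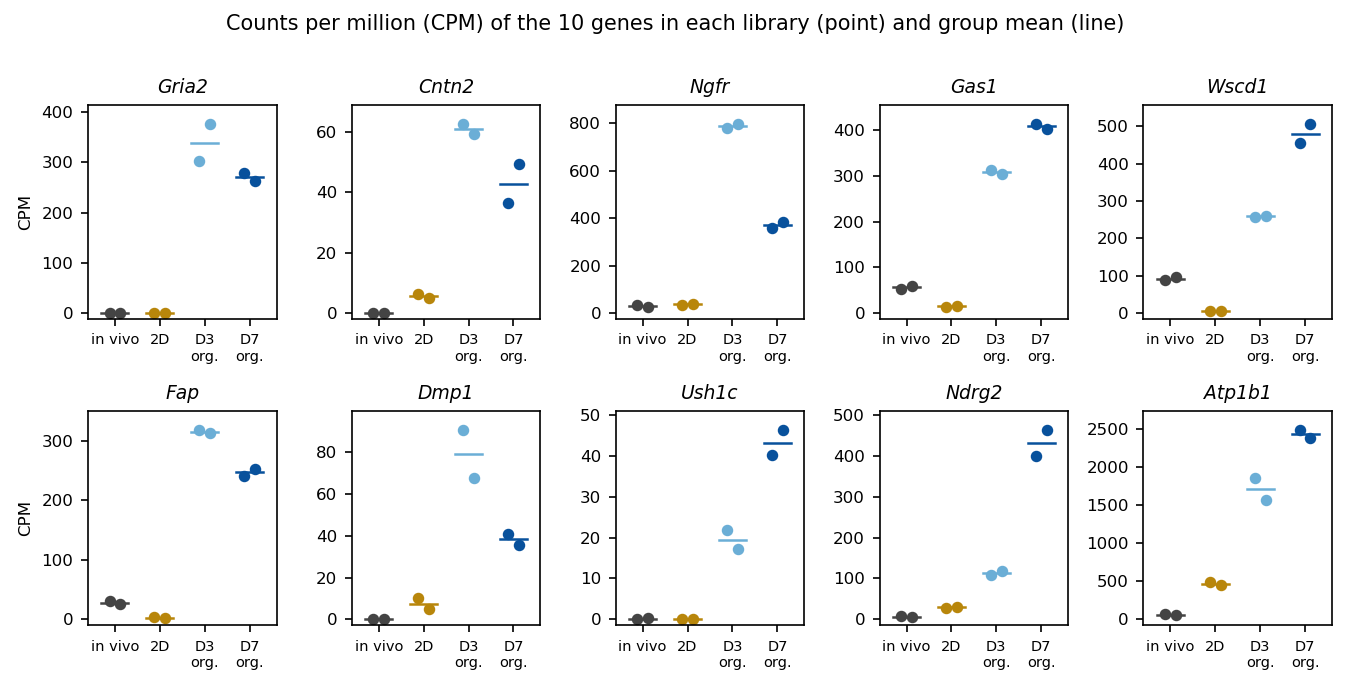
CPM (linear axis, a separate scale for each gene) of the 10 genes in *in vivo* TECs, 2D-cultured TECs, D3 organoids and D7 organoids. Points are libraries and lines are group means of 2 libraries. The organoid points lie above the others in every panel, with D3 highest in 5 genes and D7 highest in 5.

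*Gria2* (ENSMUSG00000033981, chr3:80588757-80710538, minus strand) encodes the GluA2 subunit of AMPA-type glutamate receptors, the subunit that keeps calcium out of the channel. It had 2 and 0 counts *in vivo* and 1 and 4 counts in 2D, where it was barely detectable. In D3 organoids it had 302 and 376 CPM, and in D7 organoids 279 and 263 CPM. Each organoid library held at least 1332 *Gria2* reads, so that the organoids were far from the other groups on both days. The ratio of D7 organoids to 2D was 594 (95% exact counting interval 254 to 1831) and that of D3 organoids to 2D was 745 (interval 319 to 2296). Against *in vivo* TECs the ratios were 1751 (interval 484.5 to 14470) for D7 and 2197 (interval 608 to 18140) for D3, and these intervals cover counting error only. The order of the means was D3, D7, 2D and *in vivo*, the last 2 overlapping. The D7 over D3 log2 fold change of -0.32 (standard error 0.19) was not past the threshold (adjusted p = 0.24, edgeR).

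The only other AMPA receptor subunit gene that could be tested, *Gria3*, was also higher in organoids. Of *Gria1*, *Gria3* and *Gria4*, only *Gria3* passed the filter, and the CPM of the other 2 was at most 1.74 in any library. *Gria3* had 16.7 and 33.1 CPM *in vivo*, 14.4 and 20.6 in 2D, 56.1 and 67.4 in D3 organoids, and 80.1 and 68.6 in D7 organoids. All its organoid libraries lay above all others, at smaller ratios than for *Gria2*, and the difference between the genes was not tested. It was higher in D7 organoids than in 2D (log2 fold change 2.09, standard error 0.28, adjusted p = 1.1e-05, edgeR), and than *in vivo* (log2 fold change 1.57, standard error 0.27, adjusted p = 0.00021, edgeR). *Grik4*, a kainate receptor subunit, was also higher in D7 organoids than in 2D (log2 fold change 3.91, standard error 0.42). Of the 17 other ionotropic glutamate receptor genes, 4 were tested, of which 3 were higher and 0 lower in D7 organoids than in 2D and than *in vivo*, and likewise in D3 organoids. Between D7 and D3 none of the 4 passed the threshold (edgeR), nor did any at an unadjusted p, with DESeq2 or with limma-voom.

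AMPA receptors travel with auxiliary subunits. Of 20 such genes 11 were tested, and 7 were higher and 1 lower in D7 organoids than in 2D. Against *in vivo* TECs, 6 were higher and 3 lower. *Cacng4*, a transmembrane AMPA receptor regulatory protein, had 37.2 and 50.2 CPM *in vivo*, 7.64 and 5.57 in 2D, 205 and 157 in D3 organoids, and 104 and 95.1 in D7 organoids. Unlike *Gria2*, it fell from D3 to D7 past the threshold (log2 fold change -0.86, standard error 0.19, adjusted p = 0.0044, edgeR), and whether the 2 genes differ in this was not tested. *Cnih1*, a cargo receptor of the early secretory pathway, was lower in D7 organoids than in 2D (log2 fold change -1.23, standard error 0.17).

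*Cntn2* (ENSMUSG00000053024, chr1:132437165-132470994, minus strand) encodes contactin 2, a GPI-anchored adhesion protein of axons. It had 0 counts in both *in vivo* libraries and 35 and 27 counts in 2D, or 6.37 and 5.01 CPM. D3 organoids had 62.5 and 59.3 CPM, and D7 organoids 36.5 and 49.2 CPM. The groups stood apart in the order D3, D7, 2D and *in vivo*. The fold over *in vivo* TECs was at least 129 for D3 and at least 90.7 for D7 organoids, set against 3 counts per library. Over 2D the fitted log2 fold change was 3.41 for D3 (standard error 0.27) and 2.90 for D7 (standard error 0.27). The difference between D7 and D3 was -0.51 (standard error 0.23, adjusted p = 0.12, edgeR) and was not past the threshold, although the libraries of the 2 days did not overlap.

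None of the 5 other contactin genes passed the filter, and their highest CPM in any library was 3.39. Among the contactin-associated and L1-family genes 6 were tested, and 3 were higher and 0 lower in D7 organoids than in 2D, while 2 were higher and 2 lower than *in vivo*. In D3 organoids 2 were higher than in 2D, and 3 were lower than *in vivo*. *Nrcam*, an L1-family adhesion gene, had 18.8 and 20.03 CPM *in vivo* and at most 2.11 in any cultured library, the reverse of *Cntn2*.

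*Ngfr* (ENSMUSG00000000120, chr11:95459638-95478561, minus strand) encodes p75, the receptor that binds all neurotrophins. It was detected in every library, with 33.4 and 26.1 CPM *in vivo* and 33.3 and 39.9 in 2D. In D3 organoids it had 779 and 795 CPM, and in D7 organoids 359 and 383. The organoids were high on both days, D3 was above D7, and the 2D and *in vivo* libraries overlapped. Over 2D the log2 fold change was 4.43 for D3 (standard error 0.18) and 3.34 for D7 (standard error 0.17), and over *in vivo* TECs it was 4.73 (standard error 0.18) and 3.64 (standard error 0.18). *Ngfr* fell from D3 to D7 (log2 fold change -1.09, standard error 0.15, adjusted p = 0.00015, edgeR), beside 9.91% of all genes that fell and 10.9% that rose.

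*Ntrk2* and *Ntrk3*, tyrosine kinase receptors that signal with p75, were looked at after their values were seen. *Ntrk2*, the receptor of BDNF, had 1.57 and 2.54 CPM *in vivo*, 1.09 and 0.186 in 2D, 54.8 and 50.05 in D3 organoids, and 62.8 and 60.5 in D7 organoids. *Ntrk3*, the receptor of neurotrophin 3, had at most 0.987 CPM in any *in vivo* or 2D library, 17.1 and 17.2 in D3 organoids, and 62.4 and 52.6 in D7 organoids. *Ntrk3* thus rose from D3 to D7 (log2 fold change 1.75, standard error 0.32, adjusted p = 0.0010, edgeR), while *Ngfr* fell. Of 11 tested neurotrophin and receptor genes, 7 were higher and 3 lower in D7 organoids than in 2D. Against *in vivo* TECs 5 were higher and 1 lower, and between the days 3 rose and 2 fell from D3 to D7. The most abundant of the list, *Maged1* and *Bex3*, whose proteins bind p75, did not differ past the threshold between D7 organoids and *in vivo* TECs (log2 fold changes -0.10 and 0.16, adjusted p = 0.70 and 0.47, edgeR). *Bex3* was lower in D7 organoids than in 2D (log2 fold change -0.45, adjusted p = 0.025, edgeR). That call was lost with no factors beyond library size (-0.24, adjusted p = 0.23, edgeR).

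*Gas1* (ENSMUSG00000052957, chr13:60322219-60325179, minus strand) encodes a GPI-anchored co-receptor that presents hedgehog ligands to Patched. It had 52.6 and 60.1 CPM *in vivo*, 14.0 and 15.8 in 2D, 313 and 304 in D3 organoids, and 413 and 403 in D7 organoids. The 4 groups stood apart in the order D7, D3, *in vivo* and 2D, so that 2D culture lay lowest. Over 2D the log2 fold change was 4.77 for D7 (standard error 0.18) and 4.37 for D3 (standard error 0.18), and over *in vivo* TECs it was 2.85 (standard error 0.16) and 2.45 (standard error 0.16). The D7 over D3 difference of 0.40 (standard error 0.15) missed the threshold (adjusted p = 0.059, edgeR). It passed with genes of a mean CPM of at least 10 alone (0.45, adjusted p = 0.026), with limma-voom (0.41, adjusted p = 0.023) and with a replicate block (0.40, adjusted p = 0.035).

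The ligands of this pathway were not detected at levels that could be tested. *Shh*, *Ihh* and *Dhh* did not pass the filter, and their highest CPM was 0.338. *Boc*, another co-receptor, had 49.4 and 75.04 CPM *in vivo*, 29.5 and 34.7 in 2D, 122 and 134 in D3 organoids, and 172 and 178 in D7 organoids, and so held the same order of groups as *Gas1*. Its log2 fold change was 2.44 for D7 organoids over 2D (standard error 0.20, adjusted p = 4.0e-08, edgeR). *Gli3*, a transcription factor of the pathway that mostly represses, fell from D3 to D7 (log2 fold change -0.86, standard error 0.19, adjusted p = 0.0045, edgeR). Of 11 tested hedgehog genes, 6 were higher and 0 lower in D7 organoids than in 2D, and 3 were higher and 5 lower than *in vivo*. GAS1 is also related to the GFRα co-receptors of the GDNF family. There 4 of 10 genes were tested, 2 were higher and 0 lower in D7 organoids than in 2D, and *Gfra4* and *Nrtn* were the most abundant.

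*Wscd1* (ENSMUSG00000020811, chr11:71640706-71686363, plus strand) encodes a membrane protein with WSC domains. It had 88.2 and 96.6 CPM *in vivo* and 5.46 and 6.68 in 2D. In D3 organoids it had 257 and 261 CPM, and in D7 organoids 454 and 506 CPM. The 4 groups stood apart in the order D7, D3, *in vivo* and 2D, as for *Gas1*. The log2 fold change over 2D was 6.30 for D7 (standard error 0.20) and 5.41 for D3 (standard error 0.20), and over *in vivo* TECs 2.38 (standard error 0.16) and 1.49 (standard error 0.15). *Wscd1* rose from D3 to D7 (log2 fold change 0.89, standard error 0.15, adjusted p = 0.00052, edgeR). Of the other genes with a WSC domain, *Kremen1* and *Kremen2*, which encode receptors of the Wnt inhibitor Dickkopf, were tested. *Kremen2* had 77.1 and 70.8 CPM *in vivo*, 0 counts in both 2D libraries, 0.845 and 0.699 CPM in D3 and 5.33 and 5.93 in D7 organoids. Both *Kremen* genes were lower in D7 and D3 organoids than *in vivo*, where *Wscd1* was higher in organoids.

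*Fap* (ENSMUSG00000000392, chr2:62331286-62404419, minus strand) encodes fibroblast activation protein, a membrane serine protease that is best known from activated fibroblasts. It had 30.6 and 25.1 CPM *in vivo*, 3.64 and 2.23 in 2D, 318 and 312 in D3 organoids, and 242 and 253 in D7 organoids. The groups stood apart in the order D3, D7, *in vivo* and 2D. Over 2D its log2 fold change was 6.73 for D3 (standard error 0.24) and 6.38 for D7 (standard error 0.24), and over *in vivo* TECs 3.50 (standard error 0.18) and 3.15 (standard error 0.18). D7 over D3 was -0.35 (standard error 0.16, adjusted p = 0.14, edgeR), not past the threshold. *Dpp4*, the closest relative of *Fap*, had 28.4 and 8.32 CPM *in vivo*, 0.727 and 0.743 in 2D, 11.5 and 6.01 in D3 organoids, and 1.12 and 0.791 in D7 organoids. It fell from D3 to D7 (log2 fold change -3.13, standard error 0.65, adjusted p = 0.0027, edgeR). Of 6 tested relatives, 1 was higher and 2 were lower in D7 organoids than in 2D (*Prep* and *Dpp8*), and 0 were higher and 3 lower than *in vivo*.

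*Dmp1* (ENSMUSG00000029307, chr5:104345340-104361974, plus strand) encodes dentin matrix protein 1, an acidic phosphoprotein that osteocytes and odontoblasts secrete. It had 0 counts in both *in vivo* libraries and 55 and 27 counts in 2D, or 10.002 and 5.01 CPM. D3 organoids had 90.4 and 67.8 CPM, and D7 organoids 40.8 and 35.8 CPM. The groups stood apart in the order D3, D7, 2D and *in vivo*, the order seen for *Cntn2*. The fold over *in vivo* TECs was at least 167 for D3 and at least 81.0 for D7 organoids. Over 2D the log2 fold change was 3.39 for D3 (standard error 0.30) and 2.35 for D7 (standard error 0.30). *Dmp1* fell from D3 to D7 (log2 fold change -1.04, standard error 0.25, adjusted p = 0.0084, edgeR). The call was lost without D3 replicate 1 (-0.82, adjusted p = 0.12) and without D7 replicate 2 (-0.95, adjusted p = 0.091).

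*Dmp1* belongs to the SIBLING proteins of mineralized matrix, whose genes lie in a cluster. Of its 4 relatives, only *Spp1* (osteopontin) was tested, and the others were at most 1.92 CPM in any library. *Spp1* had 4 and 0 counts *in vivo*, 116 and 65.3 CPM in 2D, 109 and 107 in D3 organoids, and 1.61 and 2.17 in D7 organoids. It fell from D3 to D7 (log2 fold change -5.85, standard error 0.38, adjusted p = 4.5e-08, edgeR). *Ank*, a transporter that carries pyrophosphate out of cells, had 6.27 and 5.50 CPM *in vivo*, 4.73 and 6.68 in 2D, 90.2 and 74.4 in D3 organoids, and 76.3 and 62.3 in D7 organoids. Among 6 tested mineralization genes, 4 were higher and 1 lower in D7 organoids than in 2D, and 5 were higher and 0 lower than *in vivo*. In D3 organoids 4 were higher than in 2D and 6 higher than *in vivo*, and 0 were lower in either comparison.

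*Ush1c* (ENSMUSG00000030838, chr7:45843621-45887987, minus strand) encodes harmonin, a PDZ scaffold that holds the links between stereocilia and between intestinal microvilli. It had 0 and 2 counts *in vivo* and 0 counts in both 2D libraries. D3 organoids had 129 and 123 counts, or 21.8 and 17.2 CPM, and D7 organoids 324 and 234 counts, or 40.2 and 46.3 CPM. The order was D7, D3 and then *in vivo* and 2D, which overlapped. The fold over 2D was at least 78.4 for D7 and at least 35.4 for D3 organoids, and the ratio to *in vivo* TECs was 273 (95% exact counting interval 75.2 to 2260.0) for D7 and 124 (interval 33.9 to 1027) for D3. *Ush1c* rose from D3 to D7 (log2 fold change 1.15, standard error 0.29, adjusted p = 0.0098, edgeR). The call was lost without D3 replicate 2 (0.92, adjusted p = 0.12) and without D7 replicate 2 (1.05, adjusted p = 0.13).

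The tested type 1 Usher partners of harmonin were not raised with it. Of 4 type 1 Usher genes, 2 were tested, *Myo7a* and *Pcdh15*, and both were lower in organoids of both days than in 2D and than *in vivo*. *Myo7a*, a myosin motor, had 3.13 and 10.7 CPM *in vivo*, 7.82 and 5.38 in 2D, 2.03 and 1.40 in D3 organoids, and 2.11 and 2.17 in D7 organoids. Its calls rest on few reads, and the *in vivo* difference was near the threshold (log2 fold change -1.70 for D7, standard error 0.64, adjusted p = 0.048, edgeR). With no factors beyond library size, *Myo7a* lost its calls against 2D in D7 (adjusted p = 0.085) and D3 organoids (adjusted p = 0.053) and against *in vivo* TECs in D7 organoids (adjusted p = 0.055), and *Pcdh15* lost its call against 2D in D7 organoids (adjusted p = 0.050). Of 5 genes of the microvillar adhesion complex only *Calml4* was tested, and it was lower in D7 organoids than in 2D (log2 fold change -3.48, standard error 0.64) and than *in vivo* (-3.76, standard error 0.63). *Clrn1*, which encodes clarin 1, a membrane protein of hair cells, had 71.9 and 70.2 CPM *in vivo*, 3.64 and 2.04 in 2D, 39.9 and 49.1 in D3 organoids, and 99.4 and 99.7 in D7 organoids. *Eps8*, an actin regulator of microvilli, was higher in D7 organoids than in 2D (log2 fold change 1.72, standard error 0.18), whereas *Ezr* was not past the threshold (0.31, adjusted p = 0.11, edgeR) but passed it with no factors beyond library size (0.51, adjusted p = 0.00996). Over the lists, 1 of 5 tested Usher and stereocilium genes and 1 of 5 tested brush border genes were higher in D7 organoids than in 2D, with 2 lower in each.

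*Ndrg2* (ENSMUSG00000004558, chr14:52142588-52158469, minus strand) encodes a cytoplasmic protein of the NDRG family that is abundant in astrocytes. It had 7.66 and 4.80 CPM *in vivo*, 26.9 and 31.2 in 2D, 109.5 and 119 in D3 organoids, and 401 and 463 in D7 organoids. The 4 groups stood apart in the order D7, D3, 2D and *in vivo*. Over 2D its log2 fold change was 3.89 for D7 (standard error 0.20) and 1.98 for D3 (standard error 0.19), and over *in vivo* TECs 6.13 (standard error 0.23) and 4.22 (standard error 0.22). *Ndrg2* rose from D3 to D7 (log2 fold change 1.91, standard error 0.18, adjusted p = 1.7e-06, edgeR), the largest change of the 10 genes between the days. Its relatives were placed differently. *Ndrg1*, a gene known to respond to hypoxia, had 25.2 and 15.9 CPM *in vivo*, 155 and 245 in 2D, and at most 6.76 in any organoid library. *Ndrg3* had 183 and 214 CPM *in vivo*, 15.6 and 17.3 in 2D, 21.0 and 24.7 in D3 organoids, and 43.3 and 48.0 in D7 organoids. *Ndrg3* also rose from D3 to D7 (log2 fold change 0.99, standard error 0.19, adjusted p = 0.0014, edgeR), but was lower in organoids than *in vivo*.

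*Atp1b1* (ENSMUSG00000026576, chr1:164264678-164285957, minus strand) encodes the β1 subunit of the Na,K-ATPase, the pump that sets the sodium and potassium gradients of all cells. It had 69.8 and 56.1 CPM *in vivo*, 487 and 449 in 2D, 1854.5 and 1561 in D3 organoids, and 2483 and 2379.9 in D7 organoids. The 4 groups stood apart in the order D7, D3, 2D and *in vivo*, the order of *Ndrg2*. Over 2D the log2 fold change was 2.38 for D7 (standard error 0.16) and 1.87 for D3 (standard error 0.15), and over *in vivo* TECs 5.27 (standard error 0.18) and 4.76 (standard error 0.17). *Atp1b1* rose from D3 to D7 (log2 fold change 0.51, standard error 0.15, adjusted p = 0.021, edgeR). The call was lost without D3 replicate 2 (0.32, adjusted p = 0.20), without D7 replicate 1 (0.48, adjusted p = 0.099) and without D7 replicate 2 (0.55, adjusted p = 0.085). *Nme7* on the other strand overlaps *Atp1b1* and had 45 to 141 counts per library, against at least 398 for *Atp1b1*.

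*Atp1b3*, the β3 subunit, was lower in D7 organoids than in 2D (log2 fold change -1.86, standard error 0.24) and fell from D3 to D7 (-0.95, standard error 0.24, adjusted p = 0.0094, edgeR). Of the 4 α subunit genes 2 were tested, and 2 were higher and 0 lower in D7 organoids than in 2D and than *in vivo*. In D3 organoids 1 of them was higher and 0 lower than in 2D, and 1 was higher and 1 lower than *in vivo*. Of 9 tested pump subunits and FXYD regulators, 6 were higher and 2 lower in D7 organoids than in 2D, 4 were higher and 0 lower than *in vivo*, and 3 rose and 1 fell from D3 to D7.

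**Figure D2:**
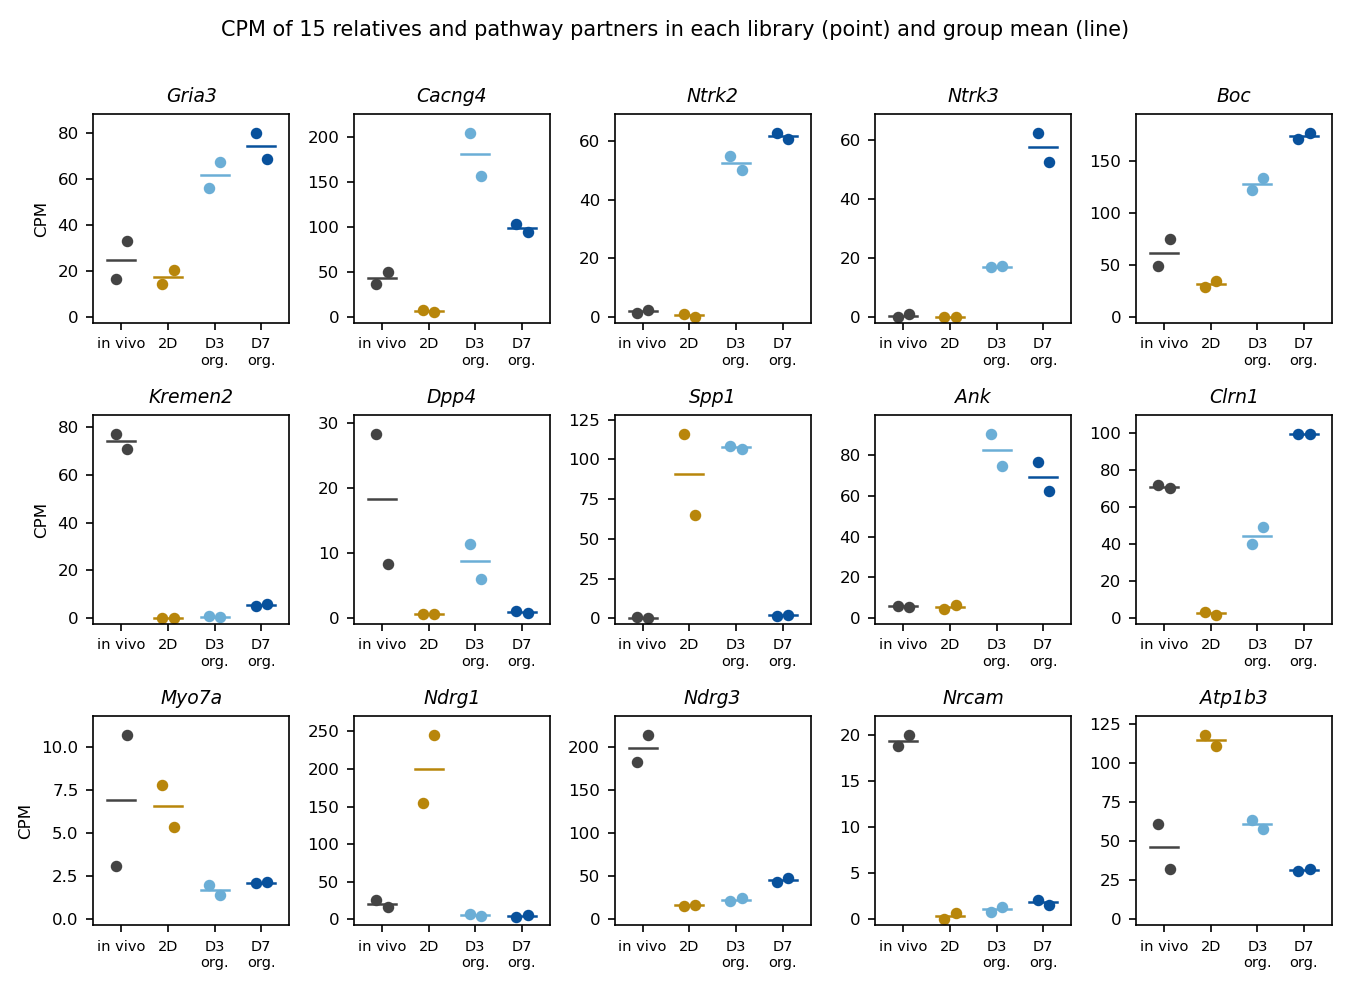
CPM (linear axis, a separate scale for each gene) of 15 relatives or pathway partners in *in vivo* TECs, 2D-cultured TECs, D3 organoids and D7 organoids. Points are libraries and lines are group means of 2 libraries. *Ntrk2*, *Boc* and *Ank* are highest in organoids, *Kremen2* and *Ndrg3* *in vivo*, and *Ndrg1* and *Atp1b3* in 2D.

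Between the days, 4 of the 10 genes rose (*Wscd1*, *Ush1c*, *Ndrg2* and *Atp1b1*), 2 fell (*Ngfr* and *Dmp1*) and 4 did not pass the threshold. These shares stand beside 10.9% of all genes that rose and 9.91% that fell. The median log2 fold change of the 10 was 0.04, against 0.06 over all genes tested, and the 10 genes moved in both directions after D3. With each library left out in turn, the number that rose was between 2 and 4 and the number that fell was 1 or 2.

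**Figure D3:**
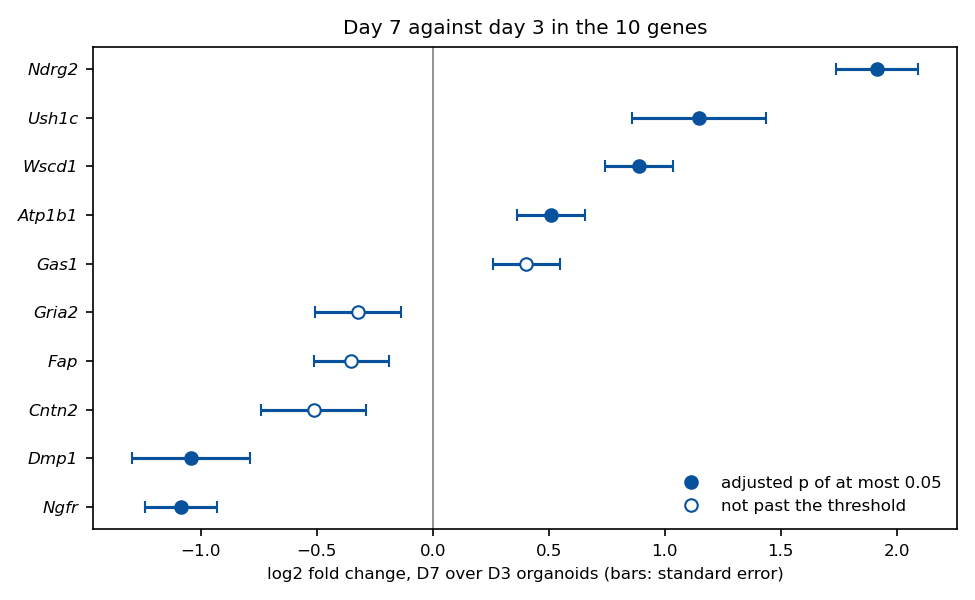
Fitted log2 fold change of D7 over D3 organoids for the 10 genes, with bars of 1 standard error and filled points for an adjusted p of at most 0.05 (edgeR). *Ndrg2* stands at 1.91 and *Ngfr* at -1.09, and the 4 open points lie between -0.51 and 0.40.

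Taking the relatives and pathway genes of all 10 together, with the 10 left out, 83 of 156 genes were tested. In D7 organoids 51.8% were higher and 19.3% lower than in 2D, with a median log2 fold change of 0.84 against 0.10 over all genes. In D3 organoids 44.6% were higher and 19.3% lower than in 2D. Against *in vivo* TECs, D7 organoids had 36.1% higher and 28.9% lower (median 0.16 against 0.01), and D3 organoids had 32.5% higher and 27.7% lower. Over all genes tested, 24.4% were higher and 21.1% lower in D7 organoids than in 2D, and 19.3% and 19.1% in D3 organoids. Against *in vivo* TECs, the shares over all genes were 18% and 16.8% for D7 and 14.1% and 14% for D3. The relatives thus had larger shares in both directions against *in vivo* TECs. Between the days 14 of the 83 rose and 10 fell, beside 10.9% of all genes that rose and 9.91% that fell. Without 1 library the number that fell was 6 (D3 replicate 1), 5 (D3 replicate 2), 5 (D7 replicate 1) or 3 (D7 replicate 2). The lists were drawn up by family and complex with earlier results of these data known. Counts of 0 were checked in these lists and in those of mesenchymal markers, tissue-restricted antigens and regulators of their expression. There the edgeR counts of 0 were 45, of which 34 held no gene at an unadjusted p of at most 0.05. DESeq2 and limma-voom gave 0 in 44 and 42 of them and at most 1 in the rest. Counts of 0 in lists of other cell types were not checked in this way.

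For each of the 10 genes, the 2 genes with the most similar profile were sought by Pearson's r of log2(CPM + 1) over the 8 libraries, among tested genes with a group mean of at least 10 CPM. The best values were between 0.989 and 0.999 and fell on 19 different genes, and since 8 libraries form only 4 groups, many genes reach such values. *Gria2* was followed by *Ank* (r = 0.996) and *Ubash3b* (0.993), and *Ubash3b* also followed *Ngfr* (0.993), whose nearest gene was *Scube1* (0.994). *Cntn2* and *Dmp1* were near each other (0.992), behind *Trib2* for *Cntn2* (0.998) and *Chst2* for *Dmp1* (0.993). *Gas1* was followed by *Hs3st3a1* (0.999) and *Pik3r1* (0.998), *Wscd1* by *Eln* and *Ivd* (both 0.996), and *Fap* by *S100pbp* and *Etv1* (both 0.996). *Ush1c* was followed by *Alpl* (0.998), the tissue-nonspecific alkaline phosphatase, and *Layn* (0.997). *Ndrg2* was followed by *Sdf4* (0.991) and *Wfdc2* (0.989), and *Atp1b1* by *Fgf1* (0.999) and *Pla2g7* (0.996). Among the 10 genes themselves, r was lowest between *Wscd1* and *Atp1b1* (0.433).

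Markers of cells in which these genes are usually found were read in the same libraries. In bulk RNA, fewer cells of a type and less RNA per cell cannot be told apart. The 10 TEC markers were all tested, and their summed level was 3017 to 3409 CPM in the organoid libraries, 5077 and 5560 *in vivo*, and 7638 and 8503 in 2D. Of these 10, 3 were higher and 6 lower in D7 organoids than *in vivo*, and 3 were higher and 4 lower in D3 organoids. Against 2D, 5 were higher and 5 lower in D7 organoids. From D3 to D7, 2 rose and 1 fell. *Foxn1* had 8.79 and 9.65 CPM in D3 and 60.7 and 85.2 in D7 organoids. The 10 mesenchymal markers summed to 22.2 and 26.7 CPM in D3 organoids, 74.5 and 81.6 in D7 organoids, 40.8 and 46.6 in 2D, and 69.3 and 98.0 *in vivo*. The sum was higher at D7 than at D3, where 3 of 7 tested markers rose and 0 fell, led by *Dcn* (7.10 and 3.36 CPM in D3, 53.6 and 51.0 in D7). This is the direction of the 4 genes that rose between the days. Of the connective tissue and bone genes among the 10, *Dmp1* fell, and *Gas1* and *Fap* did not pass the threshold. The part of the mesenchymal sum in any of these was not tested. *Pdgfra* and *Pdgfrb*, whose products mark the mesenchyme, had at most 7 and 2 counts in any organoid library. The 10 neural crest and glial markers summed to 17.4 to 28.4 CPM in organoids, 30.8 and 41.1 in 2D, and 12.5 and 9.87 *in vivo*, with *Sox10* at 4 to 13 counts per organoid library. Of 2 tested, *Erbb3*, a neuregulin receptor, was higher than *in vivo* and lower than in 2D on both days, the last in D3 not with no factors beyond library size (adjusted p = 0.096). The neural crest and glial sum of the organoids lay above the *in vivo* sums, as did the neural and glial genes among the 10. It lay below the 2D sums, whereas those genes were higher in organoids than in 2D. The part of this sum in them was not tested.

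The 10 neuronal markers summed to 60.3 to 116 CPM in organoids, 154 and 161 in 2D, and 277.5 and 335 *in vivo*. Of 6 tested, 2 were lower and 1 was higher than *in vivo* on either day, with *Elavl3*, *Snap25*, *Syt1* and *Rbfox3* at the floor in all 4 organoid libraries. Of the 10 osteoblast and osteocyte markers, *Sp7*, *Bglap*, *Bglap2*, *Ibsp*, *Sost* and *Mepe* were at the floor there, while the sum was 59.3 to 81.7 CPM in organoids, 35.1 and 45.7 in 2D, and 5.92 and 7.05 *in vivo*. Of 3 tested, 3 were higher and 0 lower than *in vivo* on either day, and 2 were higher and 0 lower than in 2D. From D3 to D7, 1 of them rose and 0 fell. The osteoblast and osteocyte sum moved with *Dmp1* against *in vivo* TECs but not between the days, and its part in the result was not tested. Thymocyte markers summed to 601 and 257.5 CPM *in vivo* and to at most 8.30 in any cultured library, and their part in the differences from *in vivo* TECs was not tested. Endothelial markers were at most 1.19 CPM in cultured libraries and erythroid markers at most 2.18. *Aire* and *Fezf2*, looked at after their values were seen, had 30 and 72 and 38 and 88 counts *in vivo*. In all cultures *Aire* had 1 count in total and *Fezf2* had 0. Of 6 tested genes among 9 regulators of this kind of expression, 2 were higher and 1 lower in D7 organoids than in 2D, and of 20 tissue-restricted antigens only 2 were tested, with 0 higher in any comparison.

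**Figure D4:**
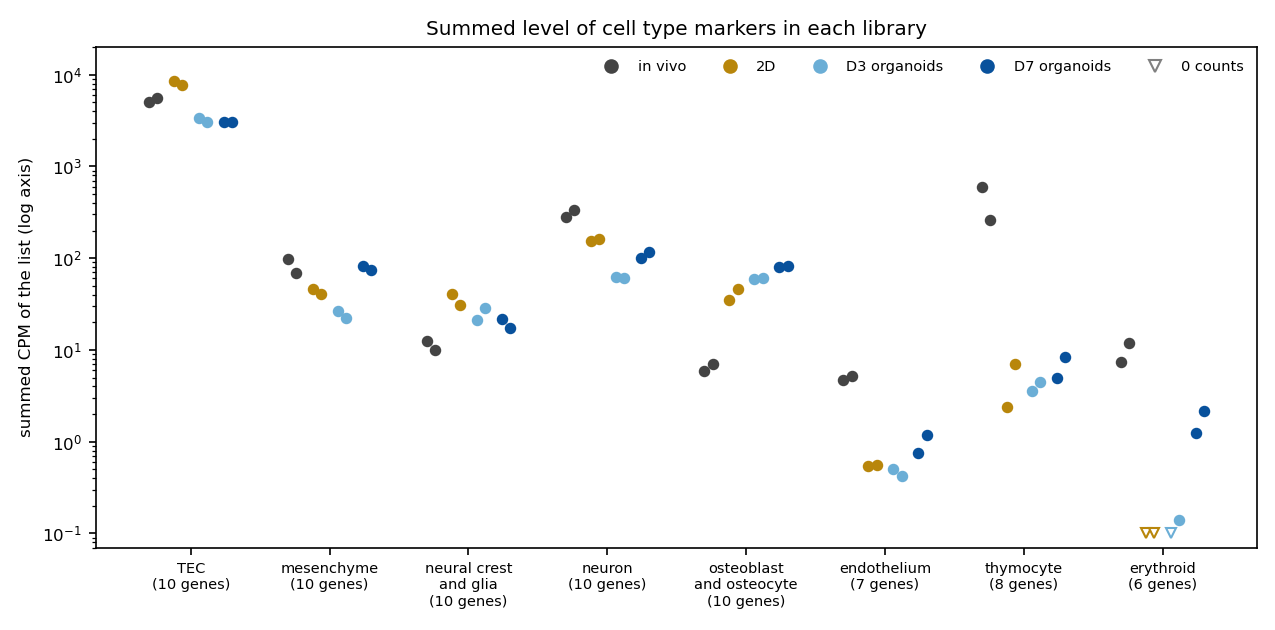
Summed CPM (log axis) of 8 lists of cell type markers in each library, with colours for *in vivo* TECs, 2D-cultured TECs, D3 organoids and D7 organoids, and open triangles for sums of 0. TEC markers lie at 3017 CPM or more in every library, and mesenchymal markers lie higher in D7 than in D3 organoids.

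Shared sequence is a minor limit for the 10 genes. Of the 50-base words in the last 500 bases of their transcripts, at most 0.4% also occurred in another gene (*Fap* 0.4%, *Gria2* 0.3%, the others 0).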

How the data were processed

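The authors made QuantSeq 3′ libraries, used STAR to align them to GRCm39, and deposited raw, unnormalized counts per Ensembl gene for each of 8 libraries. The submitters' notes name R 4.1.2, edgeR and limma. Not given in the sources used here are the gene annotation, whether counting used strand, and how multiply mapped reads were handled. Of 56923 gene rows, 56236 were matched to symbols in GENCODE vM39, and no other sample's columns were used. Groups came from the sample labels. Values of some genes are not reported here.

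Fits were made with edgeR 4.0.16 under R 4.3.3 (TMM factors, quasi-likelihood test on all 8 libraries, Benjamini-Hochberg adjustment over all 14504 genes tested), with DESeq2 1.42.0 and limma 3.58.1 as alternatives. Tables were summarised with pandas 2.3.3 and scipy 1.17.1 under Python 3.11.15. The procedure was tested on simulated counts. Replicates differed by more than counting noise (chi-square per degree of freedom 7.45 to 9.49). Folds against a group with 0 counts used 3 counts per library as a floor. Ratios to groups with few counts have exact (Clopper-Pearson) intervals that cover counting error only.

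The 10 genes and all lists were chosen with earlier results of these data known. Apart from the 10 genes, the text names the 2 most abundant tested genes of each list, tested relatives of the same family, the 2 nearest profiles, overlapping genes, and others stated as chosen after their values were seen. *Foxn1*, genes at the floor of a marker list, partners of harmonin, and genes at or near 0 were also named after their values were seen. Alternatives were DESeq2's size factors, no factors beyond library size, the 18S gene left out, no filter, a mean CPM of at least 10, DESeq2's Wald test, limma-voom, a replicate block, the 4 organoid libraries alone, and each library left out.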

Additional observations from a re-analysis of the deposited data

Results flagged for a closer look

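For 6 of the 10 genes, the difference from 2D-cultured TECs was not the same in D7 as in D3 organoids. The 2D cultures were collected at 3 days only, so against D7 organoids culture format and days of culture cannot be told apart. Because the same 2D libraries served for D7 and D3, the change in this difference equals the log2 fold change of D7 over D3 organoids, tested with edgeR. It was -1.09 for *Ngfr*, -1.04 for *Dmp1*, 0.51 for *Atp1b1*, 0.89 for *Wscd1*, 1.15 for *Ush1c* and 1.91 for *Ndrg2*. Over all genes tested, 10.9% rose and 9.91% fell from D3 to D7, by the same test. For *Dmp1*, *Ush1c* and *Atp1b1* the call rested on single libraries. Groups of 2 libraries were too small for a search for outlying libraries.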

How the results depend on the processing

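Against 2D-cultured and *in vivo* TECs, 28 log2 fold changes of the 10 genes that did not involve a group near 0 kept their sign in all 448 recomputed values. The lowest was 1.42. These are the differences that chose the genes, so their kept sign follows from the choice and is no result. With no factors beyond library size the median of all genes moved from 0.10 to 0.31 for D7 organoids over 2D and from 0.03 to 0.29 for D3 over 2D, and the share of higher among called genes from 53.7% to 65.2% and from 50.3% to 67.2%. D7 over D3 kept its sign for all 10 genes in every setting. With limma-voom *Cntn2* (adjusted p = 0.034) and *Gas1* passed the threshold, and *Cntn2* also did with the 4 organoid libraries alone (0.041). With a replicate block, 5 of the 10 genes rose and 2 fell, against 4 and 2. It called 1876 genes higher and 1711 lower, against 1575 and 1437, and changed no other call of the 10 than *Gas1*. The numbers of the replicates share no stated source, and same-numbered libraries correlated by 0.0376 to 0.149. Of the relatives, a mean CPM of at least 10 left 9 that rose from D3 to D7, 26 higher and 10 lower in D7 than in 2D, 9 lower in D3 than in 2D, and 14 and 13 lower in D7 and D3 than *in vivo*, where fewer genes were tested. With each library left out, 634 to 1768 genes rose and 549 to 1676 fell from D3 to D7, 2 to 4 of the 10 genes rose and 1 to 2 fell, and 10 to 17 relatives rose and 3 to 12 fell. Depth limits the genes with few counts, above all *Gria2*, *Ush1c*, *Myo7a* and *Pcdh15* outside the organoids.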

Other observations

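Some medullary TECs resemble cells of other organs and are called mimetic cells, and ionocyte genes were detected mainly in D7 organoids. Ionocytes are ion-transporting epithelial cells. Their transcription factor *Foxi1* had 29.0 and 18.2 CPM in D7 organoids and at most 0.705 in any other library, and *Ascl3* had 39.2 and 41.7 CPM against at most 0.845. Both were picked after their values were seen and were outside the filtered set that was tested. The chloride channel gene *Cftr* was tested and rose from D3 to D7 (log2 fold change 3.10, standard error 0.38, adjusted p = 3.4e-05, edgeR). The 8 ionocyte genes summed to 140 and 126 CPM in D7 organoids and to at most 8.001 CPM in any other library.

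Of 6 tested genes of tuft cells, 4 rose and 0 fell from D3 to D7, and of 7 tested genes of ciliated cells, 4 rose and 0 fell, beside 10.9% of all genes that rose. The tuft cell gene *Avil*, named after its values were seen, was near the threshold (log2 fold change 3.95, adjusted p = 0.0465, edgeR). Its call was lost with no factors beyond library size (adjusted p = 0.052) and with the 18S gene left out (adjusted p = 0.062). The tuft genes summed to 50.7 and 53.4 CPM in D7 organoids and to at most 31.5 in any other library. The ciliated genes summed to 38.2 and 62.1 CPM in D7 and 15.7 and 25.6 in D3 organoids, but to 117 and 130.5 in 2D. Of the 7 tested, 4 were higher and 1 was lower in D7 organoids than in 2D. The enterohepatic gene *Reg3g*, an antibacterial lectin, had 1.86 and 2.66 CPM in D3 and 40.9 and 243 in D7 organoids, so the 2 D7 libraries lay far apart. Genes of neuroendocrine cells summed to 87.4 and 56.4 CPM *in vivo* and to at most 9.92 in any cultured library, and those of muscle to 14.8 and 16.1 CPM *in vivo* and at most 3.90 in culture. Microfold genes summed to 621 to 711 CPM in organoids, 560 and 568 *in vivo*, and 1104 and 1292 in 2D, and keratinocyte genes to 44.7 to 68.4 CPM in organoids, 39.2 and 46.5 *in vivo*, and 28.0 and 18.01 in 2D.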
